A study of Mus musculus with 51 samples.

Results

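The regions described here are bivalent promoters that carried no peak of acetylated nucleophosmin (acNPM1) in mouse embryos. Members were the H3K27me3 peaks within 2 kb of the start of a protein-coding gene that overlapped an H3K4me3 peak by 1 bp or more and no peak of either acNPM1 table. The rule used peak positions only, so the level of each mark, its change in the knockout and all RNA values were free to vary. It took 387 of the 11638 H3K27me3 peaks, at the promoters of 392 genes. By the same rule 3101 peaks were bivalent promoters with acNPM1, and 344 were promoter peaks of H3K27me3 without H3K4me3. The peaks nearest the limit on the inside were those of Fam169b at 1982 bp and Insc at 1958 bp from a start, with 2.22 and 3.11 RPM of H3K27me3 in control embryos, where RPM is the reads in a peak scaled to the total reads of its library. On the outside the nearest were Esam at 2009 bp and Skida1 at 2034 bp, with 6.48 and 4.93 RPM.

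Chromatin was profiled in C57BL/6 embryos at 24h, in controls and in knockouts (KO) of LoNA, a nucleolar long noncoding RNA, for H3K27me3, H3K4me3 and acNPM1. The acNPM1 data had a further group, LoNA KO embryos in which the acetyltransferase p300 was inhibited. RNA was sequenced from control and LoNA KO C57BL/6 embryos at 18h, 20h, 22h and 24h, and from control and LoNA knockdown (KD) 2C-like mESC of the same strain, embryonic stem cells in a state like that of the two-cell embryo, by their label. The series asks how a damaged nucleolus acts on the two-cell embryo through nucleophosmin and the complex PRC2. The labels do not say how LoNA was removed, what the hours are counted from, or how many embryos entered a sample. Their treatment field names the p300 inhibitor on every chromatin sample, controls included, while the titles name it for 1 acNPM1 group, and the titles were followed. RNA of LoNA itself was not analysed here.

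A bivalent promoter holds a repressive and an activating histone mark together. H3K27me3 is written by the Polycomb complex PRC2 and goes with silent genes, and H3K4me3 is written by the Trithorax-related complexes and marks promoters able to start transcription. In embryonic cells such promoters belong largely to regulators of later development. Nucleophosmin is an abundant nucleolar protein and histone chaperone that p300 can acetylate.

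The 250 bases before the gene start are shown for 6 promoters on which the results turn, from the RefSeq promoter table of build GRCm38.p6, with CG pairs in capitals since CpG-rich sequence is where PRC2 and the H3K4 methyltransferases are known to gather. Fgf5 (ENSMUSG00000029337, chr5:98253934-98254183, plus strand) and Wnt9b (ENSMUSG00000018486, chr11:103749822-103750071, minus strand) had among the most H3K27me3. Isl1 (ENSMUSG00000042258, chr13:116309689-116309938, minus strand) gained RNA in the KD cells. Krt18 (ENSMUSG00000023043, chr15:102027966-102028215, plus strand) had no counts in the 24h KO libraries, like several other members. Terb1 (ENSMUSG00000052616, chr8:104509888-104510137, minus strand) was the single member past 2-fold in H3K27me3. Naif1 (ENSMUSG00000039164, chr2:32450207-32450456, plus strand) had the most H3K4me3.
Fgf5: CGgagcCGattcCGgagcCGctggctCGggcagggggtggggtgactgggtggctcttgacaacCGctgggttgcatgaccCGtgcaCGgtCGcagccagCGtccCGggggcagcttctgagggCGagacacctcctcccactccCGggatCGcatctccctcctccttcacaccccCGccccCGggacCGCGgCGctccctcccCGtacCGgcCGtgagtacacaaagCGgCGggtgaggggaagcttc
Wnt9b: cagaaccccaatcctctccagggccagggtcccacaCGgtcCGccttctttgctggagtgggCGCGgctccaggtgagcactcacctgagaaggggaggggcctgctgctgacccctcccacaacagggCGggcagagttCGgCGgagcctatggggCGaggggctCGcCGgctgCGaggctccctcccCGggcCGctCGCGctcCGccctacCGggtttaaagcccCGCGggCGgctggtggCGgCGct
Isl1: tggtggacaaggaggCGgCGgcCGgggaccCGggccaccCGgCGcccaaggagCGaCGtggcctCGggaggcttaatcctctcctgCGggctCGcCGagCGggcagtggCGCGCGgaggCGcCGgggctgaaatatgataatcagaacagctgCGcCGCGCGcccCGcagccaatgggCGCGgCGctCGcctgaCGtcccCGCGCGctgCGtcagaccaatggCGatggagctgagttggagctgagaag
Krt18: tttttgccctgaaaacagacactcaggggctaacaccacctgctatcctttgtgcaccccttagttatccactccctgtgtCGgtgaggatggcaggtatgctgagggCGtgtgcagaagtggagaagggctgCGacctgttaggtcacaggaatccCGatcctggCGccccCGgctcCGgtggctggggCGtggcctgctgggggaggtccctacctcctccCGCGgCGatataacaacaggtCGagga
Terb1: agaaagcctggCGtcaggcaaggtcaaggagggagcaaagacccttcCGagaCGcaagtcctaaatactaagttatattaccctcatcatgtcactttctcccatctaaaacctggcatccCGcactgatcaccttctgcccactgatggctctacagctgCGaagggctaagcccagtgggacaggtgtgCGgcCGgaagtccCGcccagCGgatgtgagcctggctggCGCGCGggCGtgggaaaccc
Naif1: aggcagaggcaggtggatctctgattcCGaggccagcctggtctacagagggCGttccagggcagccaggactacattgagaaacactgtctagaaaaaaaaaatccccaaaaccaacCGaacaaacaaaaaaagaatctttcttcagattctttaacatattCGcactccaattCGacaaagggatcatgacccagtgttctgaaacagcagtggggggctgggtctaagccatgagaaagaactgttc

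These stretches held 24 CG pairs at Fgf5, 22 at Wnt9b, 33 at Isl1, 12 at Krt18, 13 at Terb1 and 5 at Naif1. Their GC content was 70.8%, 72.0%, 71.2%, 60.4%, 58.0% and 46.8% in that order. The H3K27me3 peak covered all 250 bases at Fgf5, Wnt9b and Krt18, 103 at Isl1, 100 at Terb1 and 26 at Naif1. The promoter with the most H3K4me3, Naif1, thus had the fewest CG pairs of the 6 in the stretch shown. Its H3K27me3 peak lay mostly downstream of that stretch and its H3K4me3 peak (chr2:32450473-32453152) wholly so. The CG count at Naif1 is therefore of sequence outside its H3K4me3 peak. The table held a promoter for 291 of the 392 genes (74.2%), under the 80% set for a comparison of composition or motifs, so that comparison is void.

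The members had little H3K27me3 and narrow peaks. In control embryos their median was 2.60 RPM (quartiles 1.84 and 3.36) against 5.84 RPM at bivalent promoters with acNPM1 and 3.43 RPM over all peaks. Median width was 590 bp against 912 bp and 707 bp, and the level per kb was 4.11, 6.53 and 4.96 RPM. Promoter peaks of H3K27me3 without H3K4me3 were as narrow, at a median of 590.5 bp, with 3.24 RPM and 5.34 RPM per kb. The levels overlapped in part: 344 of the acNPM1-bearing peaks (11.1%) lay at or under the members' median, while 719 (23.2%) lay above the highest member. A gene start fell inside 144 of the member peaks (37.2%) and inside 53.6% of the acNPM1-bearing peaks. H3K4me3 differed less, with a control median of 9.16 RPM at the members and 11.9 RPM at the acNPM1-bearing promoters. Each chromatin table holds 1 column per condition, so these are values of single libraries with no test. Whether a lower H3K27me3 level or a narrower peak made an overlap with an acNPM1 peak less likely was not tested.

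**Figure D1:**
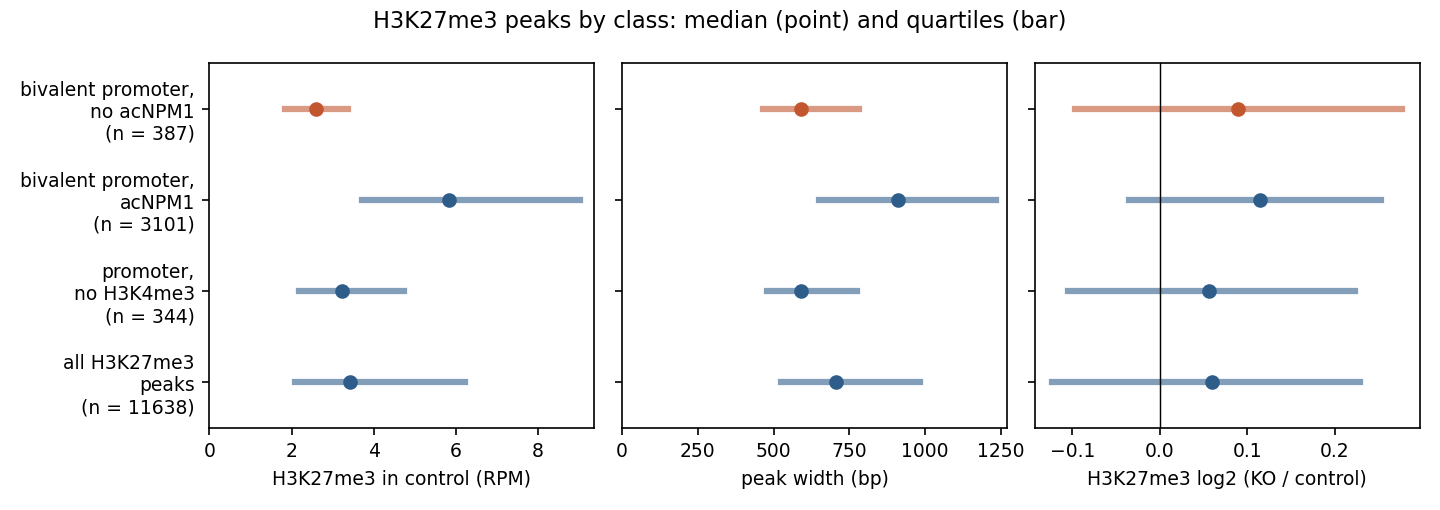
Median (point) and quartiles (bar) of control H3K27me3 in RPM, of peak width in bp and of the log2 ratio of KO over control for 4 classes of H3K27me3 peak. The 387 bivalent promoters without acNPM1 sit lowest in control H3K27me3, at a median of 2.60 RPM, while the quartiles of their log2 ratio span 0 as in every class shown.

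Absence of an acNPM1 peak did not always mean distance from one. The nearest acNPM1 peak lay a median of 29848 bp away, but 71 members had one within 1 kb and the closest was 23 bp away. Of the 392 genes, 47 had another bivalent peak with acNPM1 at their promoter, among them Wnt10a, Fgf5 and Unc5d. In all, 8 genes had more than 1 member peak, 13 peaks served 2 genes, and 17 peaks lay on the X chromosome.

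Secreted signals and their receptors headed the members. Wnt10a, which encodes a Wnt ligand, had the most H3K27me3, with 9.40 RPM in control and 10.9 in KO (chr1:74792429-74793513). Fgf5, a fibroblast growth factor of the early epiblast, had 7.89 RPM in control and 9.71 in KO (chr5:98253710-98254857). Wnt9b, another Wnt ligand, had 7.11 and 6.16 RPM. Over the 8 signalling peaks the control median was 4.90 RPM, from 1.27 at Axin2, a feedback inhibitor of Wnt signalling, to 9.40 at Wnt10a. H3K27me3 was higher in KO at 6 of these 8, beside 63.8% of all members and 59.3% of all its peaks. H3K4me3 was higher at 5 of the 8, with a median log2 ratio of 0.02, beside 25.6% of all members and 26.8% of all its peaks. At Axin2 H3K27me3 went from 1.27 to 2.05 RPM, a log2 ratio of 0.69 with a 95% counting interval of 0.22 to 1.18. The receptors Fzd6 and Fgfr1 had 5.08 and 3.36 RPM in control, and 4.35 and 3.55 in KO.

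Among other peaks with much H3K27me3, Fli1, an ETS transcription factor of blood and vessels, had 7.89 RPM in control and 8.71 in KO. Unc5d, a netrin receptor, had 7.26 and 5.86 RPM. Pappa, a protease that cleaves insulin-like growth factor binding proteins, had 6.73 and 8.02 RPM. Bhlhe41, a circadian repressor, had 6.60 and 6.66 RPM. Pax1, a paired-box factor of the vertebral column, had 6.16 and 5.80 RPM. At each of these peaks the control and KO libraries stayed within 1.5-fold of each other.

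Homeobox factors made the largest family, with 15 peaks and a control median of 4.51 RPM against 2.47 RPM for the 330 peaks outside the families listed. They ran from 2.29 RPM at Hesx1 to 6.16 at Pax1 and were higher in KO at 11 of 15, beside 63.8% of all members and 59.3% of all peaks. Nkx2-2, a factor of the ventral neural tube, had 5.61 RPM in control and 4.87 in KO. Nkx6-1, of motor neurons and beta cells, had 4.51 and 6.38 RPM, with a log2 ratio of 0.50 (counting interval 0.25 to 0.76). Isl1, a LIM factor of motor neurons and heart, had 2.48 and 3.51 RPM, with a ratio of 0.50 (0.16 to 0.85). Hoxc9 and Hoxd10, which pattern the body axis, had 4.61 and 3.11 RPM in control and 5.44 and 3.67 in KO. Pax7 carried the least H3K4me3 of the family at 1.76 RPM.

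The 9 zinc finger, nuclear receptor and AP-2 factors had a median of 3.53 RPM, led by Fezf1, a factor of forebrain neurons, with 5.61 RPM in control and 7.18 in KO. Wt1, of kidney and gonad, had 4.59 and 5.02 RPM, and Prdm14, of germ cells and pluripotent cells, 4.23 and 4.19. The 4 basic helix-loop-helix peaks had a median of 2.34 RPM and the 8 axon guidance and adhesion peaks 3.34. The 10 peaks of channels, neurotransmitter receptors and transporters had 2.48 RPM. By gene, 55 of 392 (14.03%) fell in one of these families, beside 17.3% of the genes with an acNPM1-bearing bivalent promoter and 5.75% of all protein-coding genes. Transcription factor families alone held 7.65%, 5.48% and 2.202%. These families were chosen with earlier results of the data known.

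Naif1, which encodes a nuclear apoptosis-inducing factor, carried the most H3K4me3, with 40.9 RPM in control and 35.6 in KO over 2.18 and 2.13 RPM of H3K27me3. Klf15, a Krüppel-like factor of metabolism, had 39.1 and 39.7 RPM of H3K4me3, and Cavin1, a coat protein of caveolae, 36.5 and 31.9. These 3 lay at or below the members' H3K27me3 median. Across the 387 members the levels of the marks were nearly unrelated in control embryos (Spearman's rho 0.10), and H3K27me3 rose with peak width (rho 0.50). Both values are a description across peaks of the same libraries. RPM is not scaled to peak width, so a wider peak holds more reads at an equal density, and the second value does not describe density.

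In the knockout most members shifted a little towards more H3K27me3. The KO median was 2.69 RPM, and 247 of 387 peaks (63.8%) were higher in KO, beside 69.9% of the acNPM1-bearing promoters and 59.3% of all peaks. The median log2 ratio was 0.09 at members, 0.11 at promoters with acNPM1 and 0.06 over all peaks. With called meaning past 2-fold, 1 member was higher (0.258%), where 0.0258% of all peaks were, and 0 were lower, where 0.223% were. Past 1.5-fold 17 members were higher (4.39%, background 2.27%) and 3 were lower (0.775%, background 2.59%). The counting interval of the ratio lay above equality at 71 members (18.3%), against 18.6% of all peaks and 28.5% of the acNPM1-bearing promoters. It lay below equality at 20 members (5.17%), against 8.62% and 5.39%. The interval narrows as reads increase, and the members had the fewest, with control medians of 2.60, 3.43 and 5.84 RPM in the same order. The members' share of rises by this measure was near that of the whole table, but these shares are not like for like. What read number adds to them, or to the shares past 1.5-fold, was not tested. These intervals cover counting error only, and reads without molecular identifiers are not independent molecules. The columns of the H3K27me3 and H3K4me3 tables carry initials in place of group names. Which is control and which KO was taken from the direction of the ratio and the title, and every chromatin direction given here rests on that reading.

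The member with the largest rise was Terb1, which tethers meiotic telomeres to the nuclear envelope. Its H3K27me3 went from 82 to 189 reads, or 1.74 to 3.77 RPM, a log2 ratio of 1.12 (counting interval 0.74 to 1.51, chr8:104509110-104509987), while its H3K4me3 was 16.3 RPM in control and 15.0 in KO. Ppp1r9b, a scaffold of dendritic spines, went from 2.31 to 4.21 RPM, with a ratio of 0.87 (0.53 to 1.21). Nmi, an interferon-induced protein that binds Myc, went from 1.14 to 2.05 RPM on 54 and 103 reads. Tcf7 and Sox11, factors of T cells and of neurons, went from 0.952 to 1.64 and from 1.02 to 1.73 RPM. Fam169b, Cyb5r2 and Fjx1 were the others among the 8 largest rises, with log2 ratios of 0.81, 0.77 and 0.77. These 8 had 45 to 159 reads in the control column, and the part of such read numbers in these ratios was not tested.

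**Figure D2:**
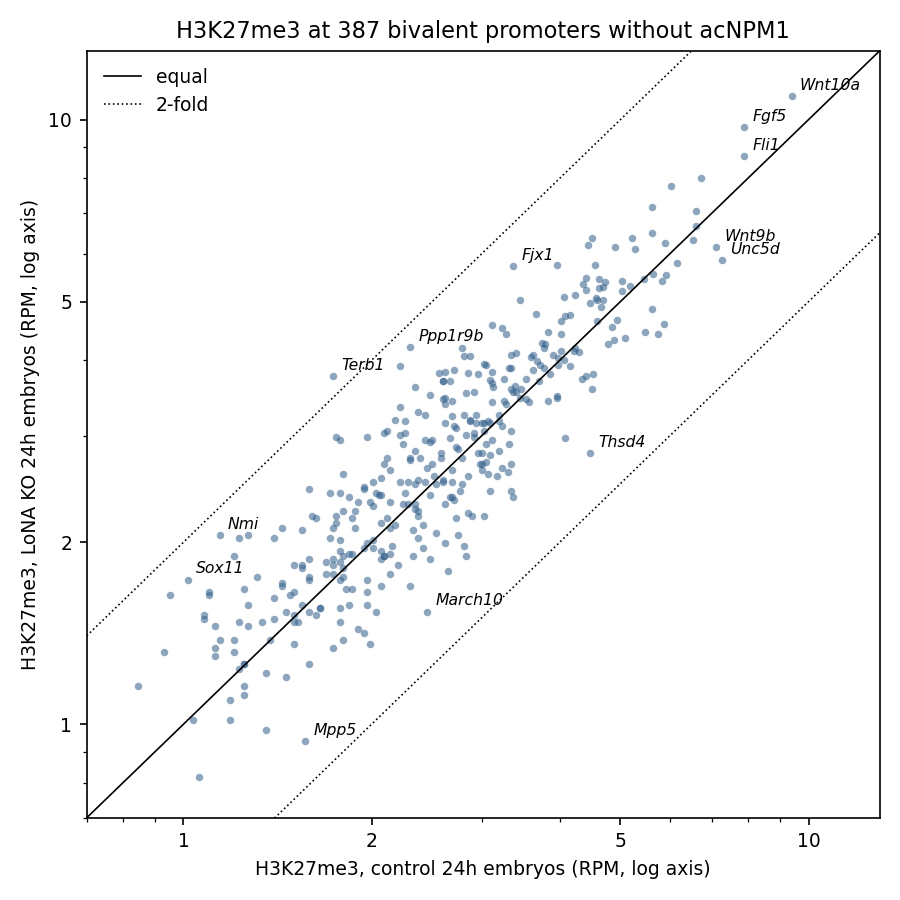
H3K27me3 at the 387 members in control (horizontal) and LoNA KO (vertical) 24h embryos, in RPM on log axes, with 1 point per peak, a solid line at equality and dotted lines at 2-fold. Terb1 is the 1 point beyond 2-fold, at 1.74 and 3.77 RPM, and Wnt10a sits at the top right.

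The falls were smaller. Mpp5, a scaffold of epithelial polarity, went from 1.57 to 0.937 RPM, a log2 ratio of -0.74 (counting interval -1.30 to -0.19). March10, a ubiquitin ligase gene whose symbol the deposited tables show as a date, went from 2.45 to 1.54 RPM. Thsd4, a matrix protein of microfibrils, went from 4.47 to 2.81 RPM, with a ratio of -0.67 (-0.99 to -0.35). Nfatc4, a calcium-responsive transcription factor, and Sfmbt1, a Polycomb-group protein, had ratios of -0.56 and -0.55. The peaks of 2010300C02Rik, Frmpd3 and Arhgef37 completed the 8 largest falls with -0.58, -0.51 and -0.50.

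H3K4me3 leaned the other way by a similar amount. The KO median was 8.46 RPM against 9.16 in control, the median log2 ratio was -0.11, and 99 of 387 members (25.6%) were higher in KO. Over all 48658 H3K4me3 peaks the median ratio was -0.13 and 26.8% were higher, so the members' shift was near that of the whole table. Past 2-fold 0 members were higher and 0 lower, against 0.0103% and 0.0678% of all peaks. Past 1.5-fold 10 members were lower (2.58%, background 2.81%) and 0 were higher (background 0.555%). The control H3K4me3 column rests on 66601350 reads and the KO column on 49648616, and what this gap adds to the shift was not tested.

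Gm1604b had the largest fall in H3K4me3, from 1.55 to 0.866 RPM (log2 ratio -0.84, counting interval -1.39 to -0.31). Gm11127 went from 11.1 to 6.83 RPM and Arhgef37, a guanine nucleotide exchange factor, from 12.7 to 7.90. Cd247, the zeta chain of the T cell receptor, went from 3.59 to 2.26 RPM. Des, the muscle filament desmin, was among the largest rises, with 6.50 RPM in control and 8.70 in KO. By direction 191 members had more H3K27me3 and less H3K4me3 in KO, 97 had less of both, 56 had more of both and 43 had less H3K27me3 and more H3K4me3. These joint counts were not made over all peaks. Taken singly, H3K27me3 was higher at 63.8% of members and 59.3% of all its peaks. H3K4me3 was higher at 25.6% of members and 26.8% of all its peaks, so the largest joint count follows the lean of both whole tables. Across peaks the ratios were nearly unrelated (rho -0.08). Arhgef37 and March10 were among the largest falls in both marks, and Thsd4 and 2010300C02Rik had less H3K27me3 with H3K4me3 log2 ratios of 0.31 and 0.35.

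**Figure D3:**
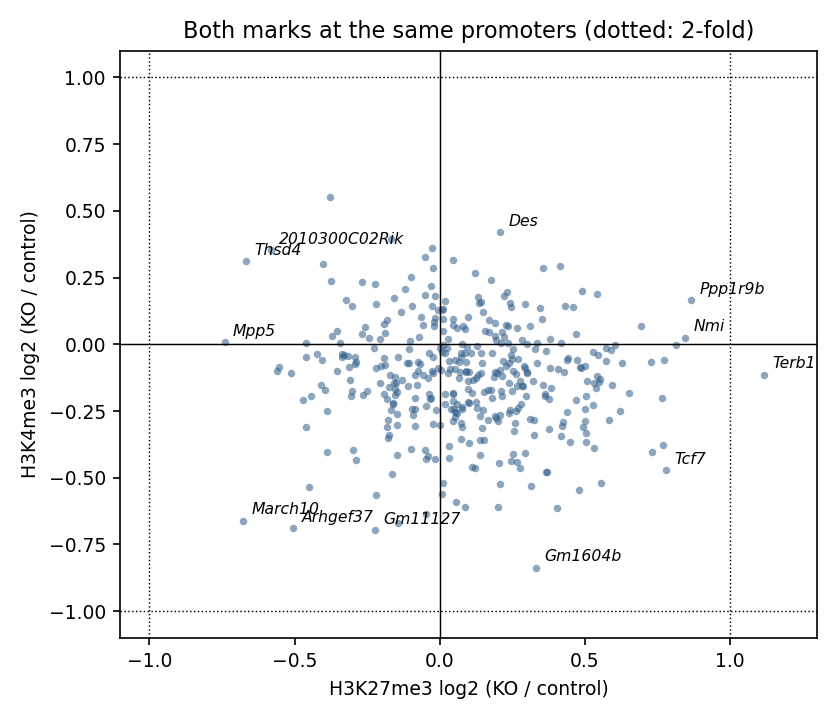
The log2 ratio of KO over control for H3K27me3 (horizontal) and H3K4me3 (vertical) at each of the 387 members, with solid lines at 0 and dotted lines at 2-fold. At the lower right lie 191 peaks, on the side towards which each mark also leaned over all its peaks, and 1 point lies beyond a dotted line.

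RNA of the member genes was present in every embryo library. A gene was counted as detected at 1 CPM or more, where CPM is its count scaled to the TMM-adjusted library size. In control embryos 54.3% to 55.4% of the 392 genes were detected at 18h, 44.1% to 50.8% at 20h and 45.9% to 52.6% at 22h. The genes with acNPM1-bearing bivalent promoters were detected less, at 47.8% to 48.7%, 43.0% to 45.2% and 42.4% to 46.2% in the same libraries, and all protein-coding genes more, at 59.3% to 59.8%, 54.7% to 56.9% and 55.5% to 58.7%. In the 18h KO libraries the share of members was 44.9%, 45.7% and 50.8%, below every 18h control library. In the same order all protein-coding genes were at 53.2%, 54.6% and 59.5%, the last inside the control range. Genes with acNPM1-bearing bivalent promoters were at 40.5%, 41.6% and 48.8%, the last above every control library. At 24h detection was 18.1% and 25.5% in control and 17.9% and 22.7% in KO. Libraries of 18h, 20h and 22h and of mESC had 12077497 to 18286944 counts with 17125 to 23957 genes counted. Those of 24h, each the sum of 2 near-identical columns, had 13066794 to 16922914 with 7877 to 10167 genes, and mitochondrial transcripts took 12.9% to 19.3% of counts there against 1.48% to 9.84% elsewhere.

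**Figure D4:**
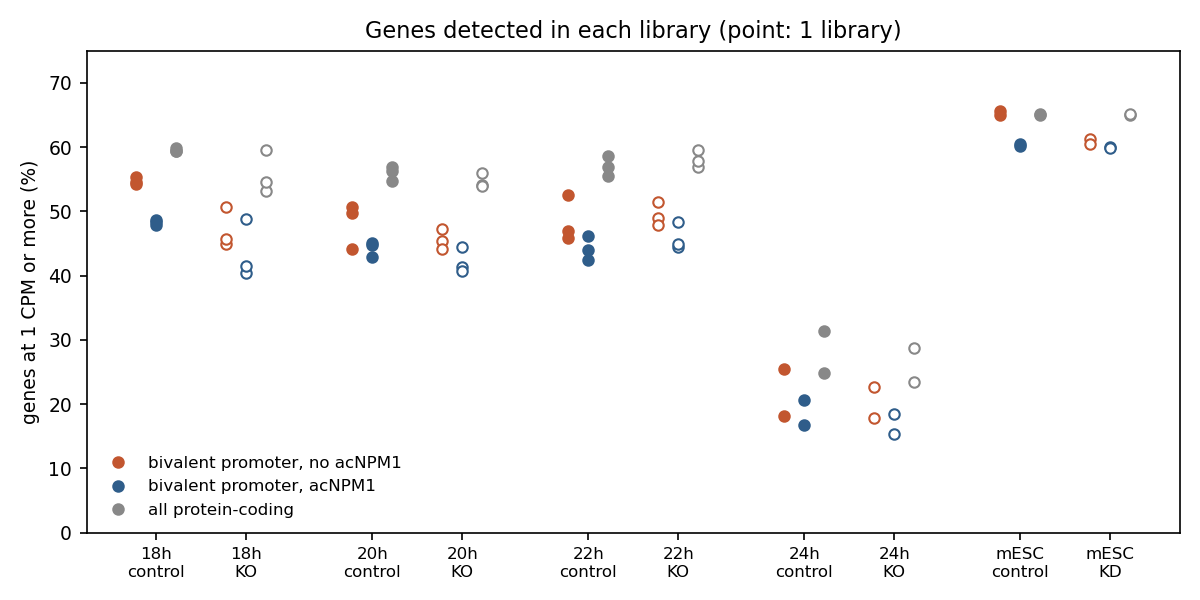
Share of genes at 1 CPM or more in each library (1 point per library, filled for control, open for KO or KD), for genes with a bivalent promoter without acNPM1, for those with acNPM1 and for all protein-coding genes. The 3 KO libraries of 18h lie below the controls for the members, and the 24h libraries lie lowest for all 3 sets.

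The 10 most abundant member RNAs of control embryos ranged from 189 to 707 CPM. Ggct, an enzyme of glutathione turnover, averaged 707 CPM over the 9 control libraries of 18h, 20h and 22h. Sfmbt1 averaged 617 CPM, Unc13c, a priming factor of synaptic vesicles, 562, and Dusp14, a phosphatase of MAP kinases, 472. Miox, an enzyme of inositol breakdown, averaged 369 CPM, and the actin nucleators Fhod3 and Fmn2 278 and 268. Lef1, a nuclear effector of Wnt signalling, averaged 247 CPM, Lmbr1 197 and Elavl2, an RNA-binding protein, 189. Fmn2 and Elavl2 are known as oocyte genes, and in bulk samples RNA carried over from the oocyte and newly made RNA cannot be told apart, nor can fewer cells of a type and less RNA per cell. In the embryo libraries marker genes of the two-cell embryo summed to 2566 to 29416 CPM, and oocyte and maternal markers to 3471.5 to 10814. Dppa3 alone made up 5461 of the 6174 CPM of the two-cell sum in 18h controls, on average.

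Chromatin levels differed somewhat with RNA. The 124 members whose gene was detected in all 9 control libraries had a median of 2.25 RPM of H3K27me3 (quartiles 1.74 and 3.09) and 10.3 RPM of H3K4me3. The 83 members whose gene was detected in 0 of the 9 had 2.79 RPM (2.08 and 4.16) and 7.63 RPM. The 180 between had 2.62 and 9.04 RPM. The quartile ranges overlapped, and the median log2 ratios of H3K27me3 were 0.08, 0.10 and 0.09. Chromatin was taken at 24h and these RNA libraries earlier, so the comparison is across times.

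No member gene passed the test in any embryo comparison. With edgeR's quasi-likelihood test at an adjusted p of 0.05, 0 of 217 member genes tested were called at 18h, 0 of 193 at 20h, 0 of 222 at 22h and 0 of 84 at 24h. Called among all genes were 0.00649% lower at 18h, 0.00689% higher and 0.00689% lower at 20h and 0.00656% lower at 22h, and 0 elsewhere. At an unadjusted p under 0.05 in edgeR there were 11 members at 18h (5.07%, 5.14% of all genes tested), 10 at 20h (5.18%, background 3.66%), 7 at 22h (3.15%, background 3.15%) and 2 at 24h (2.38%, background 5.16%). Among the genes to which it gave an adjusted p, DESeq2 called 3 members lower at 18h, Rnf138rt1, Gypc and Malt1 (1.03%, background 0.314%), and 0 at 20h and 22h. At 24h DESeq2 called 8 members higher (6.9%, background 6.39%) and 9 lower (7.76%, background 9.82%). With the 24h columns taken as separate libraries edgeR called 3 higher and 3 lower (3.7% each, backgrounds 5.08% and 7.01%). The libraries of a group varied widely, with an edgeR biological coefficient of variation of 70.7% at 18h, 77.5% at 20h, 55.5% at 22h and 158% at 24h, so 0 calls do not show that the members' RNA was unchanged. A test of whether the KO effect differed between 18h, 20h and 22h called 0 of 278 members in edgeR, with 21 at an unadjusted p under 0.05 (7.55%, background 6.27%), and 0 of all 18992 genes.

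At 18h the members with the smallest p were all lower in KO. Gypc, the red cell membrane protein glycophorin C, had 13.4, 20.4 and 8.66 CPM in the control libraries and 3.06, 1.92 and 3.65 in KO. The groups did not overlap, and edgeR gave a log2 change of -2.30 (SE 0.61, adjusted p 0.744). Cntnap3, a neuronal adhesion protein, had 11.998, 22.4 and 37.3 CPM in control and 7.54, 2.38 and 6.75 in KO (log2 change -2.10, SE 0.60). Malt1, a protease of lymphocyte signalling, had 7.42, 1.78 and 13.6 CPM against 0.674, 0 and 0.274. Unc5d, among the members with the most H3K27me3, had 0.947, 2.32 and 2.31 CPM in control and 0 counts in KO, at least 24.96-fold lower from a floor of 3 counts over the group. Rnf138rt1 likewise had 1.74, 5.46 and 1.09 CPM against 0 counts, at least 37.1-fold lower. Over the 217 members tested 25 had every KO library below every control library (11.5%, 7.04% of all genes tested) and 7 had every one above (3.23%, background 5.79%). The lower detection in the 18h KO libraries moves with this count, and its part was not tested.

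At 20h the directions were mixed. Rnf225, a RING finger gene, had 0.975, 1.70 and 1.94 CPM in control and 0 counts in KO, at least 23.2-fold lower. Rnf180, a ubiquitin ligase, had 0.418, 0.710 and 3.47 CPM in control and 11.2, 19.4 and 4.44 in KO. Pla2g12b, a phospholipase relative, had 0, 0 and 0.423 CPM against 5.31, 6.22 and 2.61. Fmnl3, a formin that shapes filopodia, had 80.1, 81.7 and 93.8 CPM against 136, 163 and 130, without overlap, for a log2 change of 0.75 (SE 0.29, edgeR adjusted p 0.998). Terb1, the promoter with the largest H3K27me3 rise, had 19.0, 96.8 and 59.9 CPM in control and 18.7, 29.2 and 17.7 in KO, so its lowest control library reached into the KO range. Its log2 change was -1.42 (SE 0.53) at 20h, -0.27 (0.39) at 18h and -0.15 (0.32) at 22h. In the 24h libraries, the time of the chromatin data, Terb1 had 116 and 35.0 CPM in control and 20.9 and 0.185 in KO, a log2 change of -2.84 with an SE of 2.46. None of these passed. Over the 193 members tested at 20h, 14 were wholly above (7.25%, background 4.65%) and 9 wholly below (4.66%, background 5.22%).

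At 22h the smallest p values went with higher RNA in KO. Ciita, the master activator of MHC class II genes, had 0, 0.0594 and 0 CPM in control and 3.30, 0.975 and 1.13 in KO, on a single control count. Igf2r, the imprinted scavenger receptor of insulin-like growth factor 2, had 2.44, 3.21 and 1.68 CPM against 17.0, 4.76 and 7.72, without overlap (log2 change 2.01, SE 0.58, edgeR adjusted p 1). Ptk2b, a focal adhesion kinase, had 1.22, 6.24 and 4.11 CPM against 12.2, 12.8 and 7.95. Thsd4 had 2.31, 4.69 and 6.37 CPM against 12.1, 9.46 and 7.54, again without overlap, and it was among the largest H3K27me3 falls at 24h. Ccdc166 had 0, 0.356 and 0.174 CPM against 2.91, 1.72 and 2.08. Over all members tested 9 were wholly above and 9 wholly below (4.05% each, backgrounds 4.73% and 4.5%).

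At 24h Krt18, a keratin of simple epithelia and trophectoderm, had 21.5 and 26.2 CPM in control and 0 counts in both KO libraries, at least 242-fold lower. Its edgeR adjusted p was 0.826. Groups at 0 counts were common at 24h and went both ways. Adamts12 and St14, also at 0 in KO, were at least 213-fold and 158-fold lower. Dock5 and Fam174a, at 0 in both controls, were at least 501-fold and 365-fold higher. At 18h the control libraries had 6.47, 14.4 and 6.87 CPM of Krt18 and the KO libraries 4.97, 3.53 and 0.729, also without overlap (log2 change -1.58, SE 0.80, edgeR adjusted p 0.969). At 20h and 22h the groups overlapped. The Krt18 promoter had 3.26 RPM of H3K27me3 in control and 3.73 in KO. Of the 6 trophectoderm markers listed, 4 had a row of counts at 24h, Krt18 among them. These 4 summed to 104 and 113 CPM in control and 0.0707 and 6.53 in KO. What fewer trophectoderm transcripts add to the Krt18 value was not tested. Abca14, a lipid transporter relative, had 0.0619 and 0.138 CPM in control and 139 and 24.1 in KO, the highest control library resting on 2 counts. Sfmbt1 had 83.5 and 192 CPM against 479 and 377 (log2 change 1.64, SE 0.83), and Fmn2 265 and 210 against 544 and 477. Scg3, a secretogranin of secretory granules, had 81.4 and 200.02 CPM against 8.20 and 28.1. With 2 libraries a group, 13 members were wholly above and 17 wholly below of 84 tested (15.5% and 20.2%), near the backgrounds of 16.0% and 17.3%. H3K27me3 ratios and 24h RNA changes were nearly unrelated over the 83 peaks with both (rho -0.10).

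In the mESC more members fell than rose, and the largest rises were far larger than the largest falls. Over the 392 genes the median was 2.64 and 2.87 CPM in the control columns, which limits how large a fall can be measured. The sizes of rises and falls were not compared with those of all genes. Of 287 tested, edgeR called 103 higher in KD (35.9%) and 138 lower (48.1%), beside 38.9% and 35.3% of all 16406 genes and 39.6% and 43.7% of genes with acNPM1-bearing bivalent promoters. The median log2 change was -0.41 for members, 0.01 for all genes and -0.27 for genes with acNPM1. DESeq2 called 94 members higher (28.1%, background 27.9%) and 98 lower (29.3%, background 19.8%). The columns within an mESC group resembled each other as closely as those that were summed at 24h (coefficient of variation 3.39%), so these p-values measure only the spread between columns that may be 1 preparation. Detection was 65.1% and 65.6% in control and 60.5% and 61.2% in KD.

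The largest rises were those of Scg3, Syt6 and Sv2c, followed by genes of other kinds. Scg3 had 0.516 CPM in both control columns and reached 184 and 178 in the KD columns, for a log2 change of 8.44 (SE 0.11, edgeR adjusted p 4.39e-24), whereas in 24h embryos both KO libraries lay below both controls. Syt6, a synaptotagmin, had 0.287 CPM in both control columns and 77.1 and 79.0 under KD, and Sv2c, a synaptic vesicle glycoprotein, 1.38 and 1.66 against 184 and 189. Hoxc9 had 0.172 and 0.631 CPM against 19.6 and 21.6, and Isl1 1.03 in both against 22.0 and 24.0. Tmtc2, an endoplasmic reticulum protein, rose from 2.01 and 1.32 to 66.6 and 62.0 CPM, Abcc3, an organic anion exporter, from 0.861 and 1.49 to 32.0 and 31.6, and Stk32a, a kinase, from 1.03 and 0.860 to 19.8 and 19.7. All 8 went from near or under 2 CPM to at least 19 CPM, with no overlap.

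Among members that averaged 1 CPM or more over both groups the falls were near 4-fold at most. Below that level Grin2b, a subunit of NMDA receptors, had a log2 change of -2.61, the largest fall of all members called, Thsd4 -2.21 and Sp8 -2.12. At or above it, Ahrr, the repressor of the aryl hydrocarbon receptor, had 2.24 and 2.64 CPM in control and 0.525 and 0.715 under KD (log2 change -1.97, SE 0.36, edgeR adjusted p 4.06e-05). Cdh4, the retinal cadherin, had 1.95 and 1.89 CPM against 0.583 and 0.417, and Wt1 2.98 and 2.52 against 0.933 and 0.536. Gli3, a transducer of Hedgehog signalling, had 21.1 and 20.0 CPM against 6.70 and 7.27. Sec14l4, Adamts12, Nalcn and Ankrd33b completed the 8 largest falls at that level with log2 changes of -1.89, -1.72, -1.62 and -1.56. Nalcn, a sodium leak channel, no longer passed without KD replicate 1, where its change was -1.02. Terb1, below 1 CPM on average, fell from 1.32 and 0.860 to 0.466 and 0.0596 CPM (-2.01), and Igf2r from 207 and 203 to 73.1 and 66.8 (-1.55).

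By family, to be read beside the 38.9% of all genes called higher and 35.3% called lower, all 8 zinc finger, nuclear receptor and AP-2 factors tested fell, from -0.99 at Rxrg, a retinoid X receptor, to -2.12 at Sp8. Prdm14 was among them with 20.8 and 20.3 CPM in control and 10.03 and 8.22 in KD. Among the homeobox factors tested, Hoxc9 and Isl1 rose, Irx2 and Otx2 fell by 1.28 and 1.13 on the log2 scale, and Hesx1 did not pass. Of 5 axon guidance and adhesion genes Nrp1 (2.76) and Nrp2 (0.66), receptors of semaphorins and VEGF, rose, Cdh4 and Sema3c fell, and Nectin4 did not pass. Of 4 signalling genes Fzd6 (1.26) and Fstl1 (0.43) rose, Fgfr1 (-0.52) fell and Axin2 did not pass. Of 6 channels and receptors 2 rose and 3 fell. Sox11, whose promoter gained H3K27me3 in the KO embryos, rose from 53.9 to 102 CPM.

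**Figure D5:**
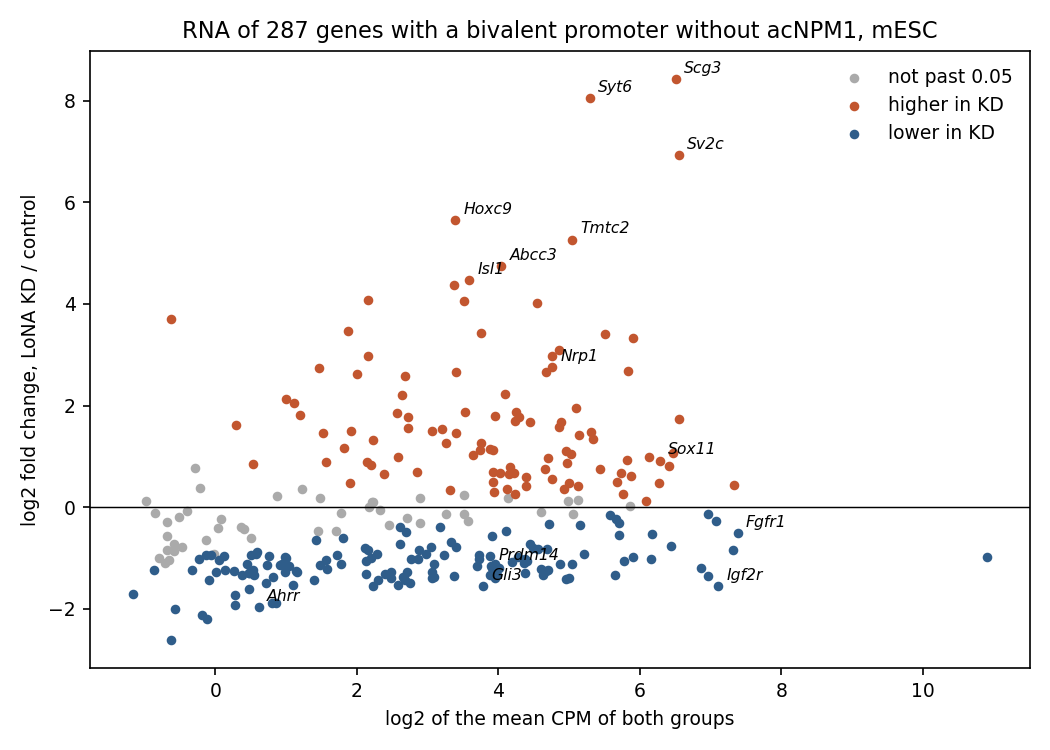
The log2 change of KD over control against the log2 mean CPM for the 287 member genes tested in mESC, coloured by the edgeR call at an adjusted p of 0.05. The 103 rises reach a log2 change of 8.44 at Scg3, while the largest of the 138 falls is -2.61, at Grin2b.

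The mESC columns also differed in markers. All 8 embryonic stem cell markers were lower in KD, their sum going from 5126 and 5143 CPM to 2609 and 2550. Of 6 fibroblast markers 4 were lower, Vim was higher (445 to 1219 CPM) and Lum did not pass, with sums of 931 and 935 CPM against 1408 and 1436. The two-cell markers, by which 2C-like cells are known, summed to 18.9 and 19.7 CPM in control and 9.38 and 11.3 in KD, with Tcstv1 at 0 in the control columns and Zfp352 at 0.0574. The cells labelled 2C-like thus had little RNA of these markers as a bulk, and the part of cell state in the members' changes was not tested.

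The writers of both marks were tested beside the members, from lists of their subunits. In embryos 0 of 13 PRC2 genes tested at 18h, 20h and 22h, and 0 of 10 at 24h, passed in edgeR. The 12 genes of H3K4 methyltransferase complexes tested at 18h, 20h and 22h, and 8 at 24h, also gave 0 calls. In mESC, where 38.9% of all genes rose and 35.3% fell, 8 of 14 PRC2 genes fell and 1, the histone-binding subunit Rbbp7, rose by 0.23 on the log2 scale. Suz12 and Eed, core subunits, had log2 changes of -0.68 and -0.37, the catalytic subunits Ezh1 and Ezh2 -0.76 and -0.35, and the accessory subunits Jarid2, Mtf2 and Epop -0.69, -0.89 and -0.92. Of 21 PRC1 genes 10 rose and 7 fell. Bmi1, a PRC1 core subunit, went from 7.49 to 103 CPM (3.78), and the chromodomain subunit Cbx8 rose by 3.04 on the log2 scale. The polyhomeotic subunits Phc1 and Phc3 fell by 0.90 and 0.52. Of 12 genes of H3K4 methyltransferase complexes 4 rose and 6 fell. The catalytic subunits Kmt2d, Kmt2b and Setd1a had log2 changes of 0.38, -0.38 and -0.52, and Men1, the gene of menin, 0.35. Npm1, the gene of nucleophosmin, was at 2374 CPM in control and 2242 in KD, a change of -0.08.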

How the data were processed

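Read counts per gene were used as deposited in 5 RNA tables, for which the submitters' processing notes name Bowtie2 2.2.3, HISAT2 2.1.0, HTSeq 0.6.0 and the build mm10 without their roles. The authors' mean signal per gene, their fold ratio and, at 24h, their log2 fold change stand in the same deposited tables and were not used. Each peak table holds reads per peak as deposited counts, the authors' RPM (reads scaled by the total reads of the column), the total reads as a constant other quantity, and the authors' log2 ratio. For these the submitters' processing notes list MACS2 2.1.1, Bowtie2 2.1.0 and bcl2fastq 2.2. Chromatin was prepared with a tagmentation-based in-situ kit, per the labels. The series' design text names H3K27ac, whereas labels and tables name H3K27me3 and H3K4me3.

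Log2 ratios were recomputed from reads and totals, with exact Clopper-Pearson 95% intervals. The peak columns are 1 per condition, also for acNPM1 with 3 labelled samples. Gene starts came from the positions of all RNA tables. RNA columns were assigned to groups by prefix: 3 per group at 18h, 20h and 22h where labels list 4 samples, 2 per mESC group where they list 3, and 4 at 24h, where columns correlated over 0.99 (log2 CPM) were summed to 2. The labels do not say whether replicates are separate pools of embryos, so a p-value measures the spread between these libraries. Genes were tested with edgeR 4.0.16 in R 4.3.3 (TMM, filterByExpr, quasi-likelihood, Benjamini-Hochberg over all genes, 0.05). The test was checked on simulated data with 200 genes changed 4-fold. There it missed most of the changed genes at 18h and 20h, many at 22h and all at 24h, and found most in mESC. DESeq2 1.42.0, other scalings, filters, left-out libraries and a block on the column numbers were alternatives. Members and gene lists were chosen with earlier results of these data known. Genes named were the members with the 10 highest H3K27me3 and 5 highest H3K4me3 levels, the 8 largest H3K27me3 and 5 largest H3K4me3 changes each way with at least 20 reads, the 5 smallest p-values per embryo time, the 8 largest mESC changes each way at 1 CPM or more, and the 10 most abundant RNAs. Some of these are given only by count or range, and some are not reported here.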

Additional observations from a re-analysis of the deposited data

Results flagged for a closer look

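Adamts12, a secreted metalloprotease gene, and Scg3 lay on opposite sides of the controls at different times. For Adamts12 every KO library was below every control library at 18h (log2 change -4.72, with 0 counts in 2 of the KO libraries) and above every control library at 20h (log2 change 1.33, with 0 counts in 1 control library). A test of whether its KO effect differed between 18h, 20h and 22h gave an edgeR adjusted p of 0.783. Scg3 was above every control library at 18h (log2 change 0.44) and below both at 24h (log2 change -2.95). The difference between these 2 times was not tested.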

How the results depend on the processing

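Of the member counts, those of H3K27me3 went from 1 higher and 0 lower past 2-fold to 17 and 3 past 1.5-fold (4.39% and 0.775%, backgrounds 2.27% and 2.59%). Those of H3K4me3 went from 0 lower to 10 (2.58%, background 2.81%). DESeq2 in place of edgeR took the members called lower at 18h from 0 to 3 (1.03%, background 0.314%). At 24h it took them from 0 to 8 higher and 9 lower (6.9% and 7.76%, backgrounds 6.39% and 9.82%). Taking the 24h columns as separate libraries gave 3 higher and 3 lower in edgeR (3.7% each, backgrounds 5.08% and 7.01%). Leaving out each 24h library in turn left 1 library in a group, assumed to vary like the others, so no counts are drawn from it. The number of members was 334 with starts within 1 kb, 466 within 5 kb, 374 at an overlap of 50% of the peak and 375 from the peak midpoint. Chosen after seeing the data, leaving out genes with another acNPM1-bearing peak left 342 peaks. Of these, 221 (64.6%) had more H3K27me3 in KO, beside 59.3% of all peaks. Of the 257 genes then tested in mESC 93 were higher and 120 lower (36.2% and 46.7%, beside 38.9% and 35.3% of all genes). In mESC leaving out 1 library likewise left a group with 1 library, so no counts are drawn from it either. The RNA columns carry numbers shared between the groups, which the labels do not tie to a litter, day or batch. Chosen after seeing the data, a replicate block on these numbers (at 24h the lowest number among the columns summed) left 0 members called at 18h, 20h, 22h and 24h. In mESC it left 103 higher and 138 lower of 287 members tested, beside 6506 higher and 5903 lower of all 16406 genes. Between same-numbered libraries the correlations of deviations from the group means ran from -0.194 to 0.148 in embryos and were 0.0645 in mESC. Between differently numbered libraries they ran from -0.2215 to 0.2353 in embryos and were -0.0645 in mESC. Deviations within a group sum to 0, so with so few libraries these values cannot show whether the numbers mark a pairing. No paired analysis was possible in the chromatin tables because they have 1 column per condition. Chromatin ratios have no replicate, and depth there limits the low peaks, with 40 reads in the control column at the least covered member.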
